A study of Caenorhabditis elegans with 6 samples.

Results

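The superoxide dismutases and catalases of *Caenorhabditis elegans* are 8 genes, sod-1 to sod-5 and ctl-1 to ctl-3, chosen by name from a count table of 46748 features. All 8 had a row in the table and all 8 passed the filter on low counts. RNA of whole hermaphrodites of strain N2, the standard laboratory strain, was sequenced at an age of 5 days in 6 libraries. The perturbation label was Y6B3B.9, the name of a worm gene, in 3 libraries, and L4440, the plasmid without insert that commonly serves as control in feeding RNA interference, in the other 3. Strain, sex, age and tissue were the same in both groups, and the labels say neither in which direction Y6B3B.9 was perturbed nor whether the libraries came from separate cultures. The p-values therefore measure the spread between these libraries, which may be technical.

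Superoxide dismutases turn superoxide, a by-product of respiration, into hydrogen peroxide and oxygen, and catalases turn hydrogen peroxide into water and oxygen. The worm has copper/zinc enzymes in the cytosol (sod-1, with sod-5 as the minor form) and outside cells or at their surface (sod-4), and manganese enzymes in the mitochondrial matrix (sod-2, with sod-3 as the minor form). The catalases are known as a cytosolic form (ctl-1), a peroxisomal form that supplies most of the activity (ctl-2) and a form reported from pharynx and neurons (ctl-3). In the worm sod-3 is widely used as a reporter of DAF-16, the transcription factor held back by insulin-like signalling.

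Total counts ranged from 23103541 to 32012257 per library. The edgeR quasi-likelihood test at an adjusted p of 0.05 called 84.1% of the 14265 genes it was run on. Under the label Y6B3B.9, 46.4% of all tested genes were higher and 37.7% were lower, so a call alone did not set a gene apart. The gene Y6B3B.9 itself was higher in the libraries that carry its name, at 35.8 ± 3.58 CPM (SD, n = 3) against 22.8 ± 0.387 CPM (SD, n = 3; log2 change 0.65, SE 0.074, edgeR adjusted p = 1.26e-06). Directions below are therefore stated between labels. Over all tested genes the log2 change had a median of 0.22, and this moved by -0.15 when DESeq2's size factors replaced the TMM scaling and by 0.29 with library totals. CPM are counts scaled to a common library size with TMM factors, and fitted log2 changes are label Y6B3B.9 against label L4440.

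Within both families the genes moved in different directions. In the libraries labelled Y6B3B.9 the transcripts of sod-3, sod-4, ctl-1 and ctl-2 were higher, those of sod-2 and ctl-3 were lower, and those of sod-1 and sod-5 did not pass the test. That made 6 of 8 genes called, or 75.0%, against 84.1% of all tested genes. Of the 8 genes, 3 rose at least 2-fold, against 23.6% of all tested genes, and 0 fell at least 2-fold, against 10.2%. The median log2 change over the 8 was 0.51. In 6 of the 8 the CPM of the groups did not overlap, against 85.4% of all tested genes. The 6 called genes kept their direction and stayed past the threshold in all 14 alternative fits.

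**Figure D1:**
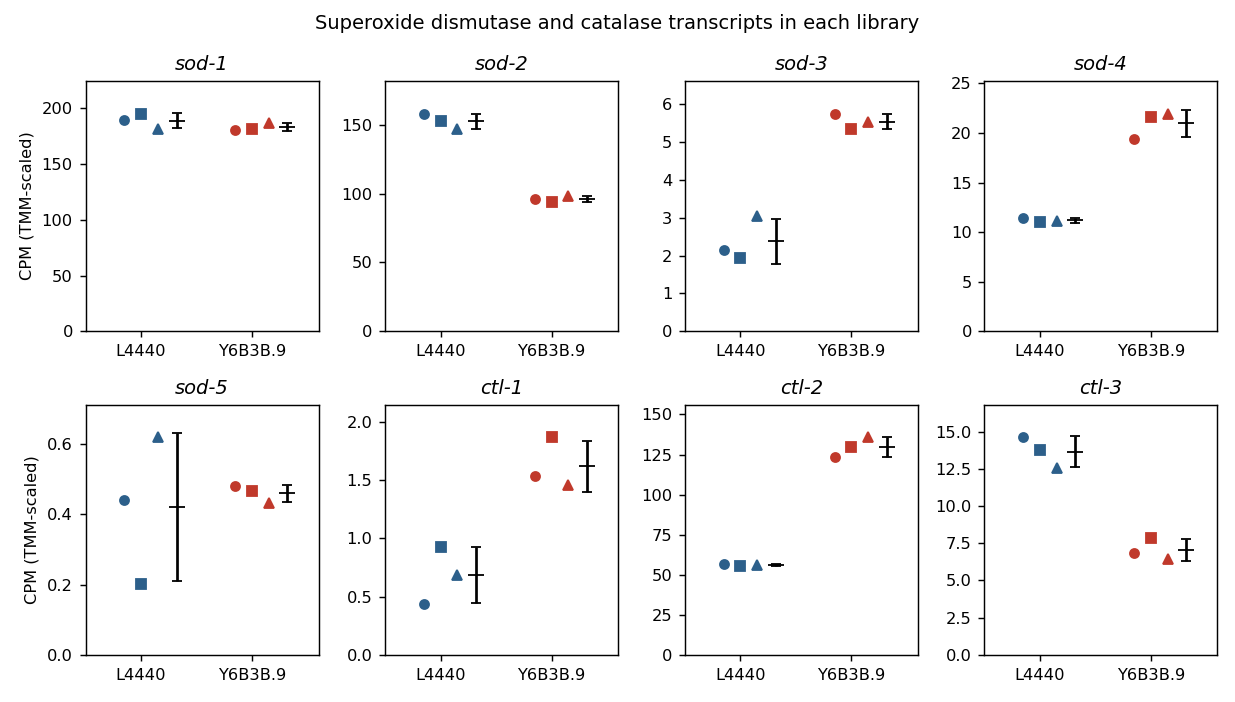
CPM of the 8 genes in each library (y axis, TMM-scaled, starting at 0) by label, with circle, square and triangle for replicates 1, 2 and 3 and the mean ± SD of 3 libraries in black. The groups are separate in 6 panels and overlap for sod-1 and sod-5.

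sod-1 encodes the main cytosolic copper/zinc enzyme and was the most abundant of the 8 transcripts. Its counts were 6025, 5843 and 4762 under the label Y6B3B.9 and 4727, 4861 and 5292 under the label L4440. In CPM the values were 181, 182 and 187 against 189, 195 and 182, so the groups overlapped. The fit gave a log2 change of -0.044 (SE 0.047, 95% interval -0.14 to 0.057, edgeR adjusted p = 0.392). Its direction rests on the scaling: it was called lower at -0.19 when DESeq2's size factors were used (edgeR adjusted p = 0.00169) and called higher with library totals (0.25, edgeR adjusted p = 0.000217). Relative to the median of all tested genes it lay at -0.26. The gene lies on the minus strand of chromosome II at 6972706 to 6973887 in build WBcel235, and art-1, 470 bases away on the same strand, had a log2 change of -0.061 (SE 0.043).

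sod-2 encodes the main manganese enzyme of the mitochondrial matrix and was the second most abundant dismutase transcript. Its reads numbered 3209, 3025 and 2505 under the label Y6B3B.9 and 3950, 3806 and 4282 under the label L4440. That came to 96.2, 94.0 and 98.5 CPM against 158, 153 and 147 CPM, with every library of the first group below every library of the second. This was a 1.59-fold lower level (log2 change -0.67, SE 0.047, edgeR adjusted p = 6.00e-09). The size moved with the setting, from -0.38 with library totals to -0.84 with the trend of change on gene length removed. The gene lies on the plus strand of chromosome I at 8434550 to 8435807. Its exons share 21 bases with dpt-1 on the other strand, which fell too (log2 change -0.96, SE 0.058, edgeR adjusted p = 1.09e-09), and since strand is not kept by the library kit, reads of the shared stretch cannot be told apart.

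sod-3, the minor manganese enzyme of the matrix, rose. The 3 libraries labelled Y6B3B.9 gave 192, 172 and 141 reads, against 54, 48 and 89 under the label L4440. The levels were 5.76, 5.34 and 5.55 CPM against 2.16, 1.93 and 3.06 CPM. L4440 replicate 3 was the highest of its group and still below every library labelled Y6B3B.9. The level was 2.30-fold higher, with a 95% interval of 1.82 to 2.91 (log2 change 1.204, SE 0.16, edgeR adjusted p = 5.27e-06). With 1 library left out, the log2 change lay between 1.05 (without L4440 replicate 2) and 1.43 (without L4440 replicate 3). The spread was unequal: the coefficient of variation was 3.72% under the label Y6B3B.9 and 25.004% under the label L4440, where counting error alone gives 12.5%. The gene lies on the plus strand of chromosome X at 17092753 to 17094306. It shares 24 exon bases with lido-1 on the other strand, which fell (log2 change -1.37, SE 0.096, edgeR adjusted p = 5.92e-09), and 65 with C08A9.3, which took 5 reads in all.

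sod-4, the copper/zinc enzyme that is secreted or bound to the membrane, rose as well. Its reads were 647, 694 and 558 under the label Y6B3B.9 and 285, 273 and 324 under the label L4440. In CPM these were 19.4, 21.6 and 21.9 against 11.4, 10.97 and 11.1, with a clear gap between the groups. The rise was 1.87-fold (log2 change 0.91, SE 0.079, edgeR adjusted p = 5.93e-08). The gene lies on the minus strand of chromosome III at 9496884 to 9500375 and has 4 annotated transcripts, which the counts do not separate. It shares 175 exon bases with ctr-9 on the other strand, which fell from 258 to 114 CPM (log2 change -1.18, SE 0.057, edgeR adjusted p = 1.36e-10), opposite in direction to sod-4.

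sod-5, the minor cytosolic enzyme, known for its rise in dauer larvae, was close to the floor of detection. It took 16, 15 and 11 reads under the label Y6B3B.9 and 11, 5 and 18 under the label L4440. The 3 libraries labelled L4440 spread from 0.201 to 0.618 CPM and enclosed all 3 of the other label, at 0.433 to 0.480 CPM. Its fitted log2 change was 0.10 (SE 0.36, edgeR adjusted p = 0.791), and its 95% interval of -0.66 to 0.87 leaves room for a difference of up to 1.83-fold. The totals of 42 and 34 reads have exact Poisson intervals of 30.3 to 56.8 and 23.5 to 47.5, which cover counting error only. The gene lies on the plus strand of chromosome II at 4417633 to 4419130, with no annotated gene overlapping it.

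Because genes of one library share its scaling, ratios of reads within a library do not depend on the scaling factors. Reads of sod-2 outnumbered those of sod-3 by 16.7, 17.5 and 17.7 times under the label Y6B3B.9 and by 72.5, 78.5 and 47.8 times under the label L4440. The sod-3/sod-2 ratio was thus 3.75-fold higher under the label Y6B3B.9, a difference of 1.91 on the log2 scale, against SDs of 0.047 and 0.38. The ratio of sod-4 to sod-1 was 1.93-fold higher, and that of sod-2 to sod-1 was 1.54-fold lower, with no overlap between the groups in either. For sod-5/sod-1 the groups overlapped. Of 6 ratios compared, 4 had an exact two-sided permutation p of 0.1, the smallest that 3 against 3 libraries allow, or 0.15 adjusted over the 6.

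**Figure D2:**
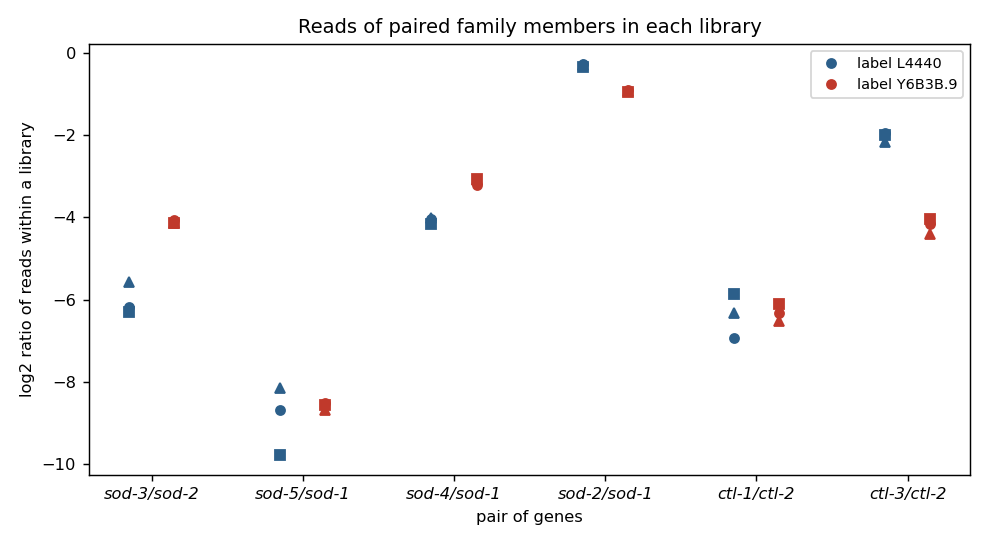
Log2 ratio of reads of 2 genes within each library (y axis) for 6 pairs (x axis), with blue for the label L4440, red for the label Y6B3B.9 and marker shapes for replicates. The groups are separate for sod-3/sod-2, sod-4/sod-1, sod-2/sod-1 and ctl-3/ctl-2 and overlap for sod-5/sod-1 and ctl-1/ctl-2.

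Levels of different genes were compared as TPM, which divide counts by gene length and scale them to the same sum in every library. The dismutases kept the order sod-1, sod-2, sod-4, sod-3, sod-5 under both labels, and in neither group did neighbours in that order overlap. sod-1 stood at 348 ± 4.35 TPM (SD, n = 3) under the label Y6B3B.9 and at 340 ± 6.16 TPM (SD, n = 3) under the label L4440, and sod-2 at 154 ± 3.92 against 232 ± 7.15 TPM. sod-1 therefore exceeded sod-2 2.26-fold in the first group and 1.47-fold in the second. The share of sod-2 in all dismutase TPM was 28.5% ± 0.341 under the label Y6B3B.9 and 39.2% ± 0.722 under the label L4440 (SD, n = 3 each). The share of sod-1 was 64.5% against 57.6%, that of sod-4 5.14% against 2.38%, and that of sod-3 1.72% against 0.643%. Within the mitochondrial pair, sod-3 made up 5.68% ± 0.177 of the TPM under the label Y6B3B.9 and 1.61% ± 0.448 under the label L4440. These 5 shares did not overlap between the groups, and each had the smallest exact permutation p, 0.1.

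The summed dismutase level was 306 ± 6.38 CPM under the label Y6B3B.9 and 355 ± 10.2 CPM under the label L4440 (SD, n = 3 each), a ratio of 0.862 with TMM scaling that turned to 1.05 with library totals. The summed catalase level was 138 ± 5.96 against 70.4 ± 0.990 CPM, a ratio of 1.96 with TMM scaling and 2.401 with library totals. The catalase total thus lay higher under the label Y6B3B.9 with either scaling, whereas the direction of the dismutase total rests on the scaling.

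**Figure D3:**
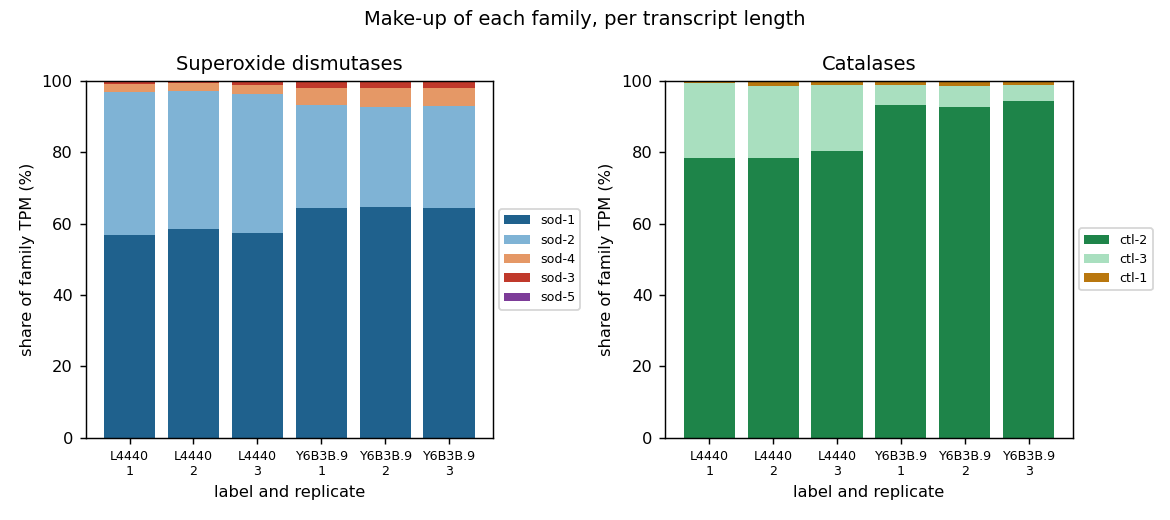
Share of each gene in the TPM of its family (y axis, percent) in each library (x axis, label and replicate). The sod-2 share lies at 28.2% to 28.8% in the libraries labelled Y6B3B.9 and at 38.6% to 40.0% in those labelled L4440, and the ctl-2 share at 92.8% to 94.3% and 78.3% to 80.4%.

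The 3 catalase genes lie side by side on the minus strand of chromosome II of build WBcel235, ctl-2 at 14299556 to 14302027, ctl-1 at 14303568 to 14306260 and ctl-3 at 14307798 to 14310779. The gaps between them are 1540 and 1537 bases. They are known as related copies, but their similarity was not measured here. Reads could be split or left out where the sequences are alike, and the counts of the individual genes are uncertain to that extent. Whether the authors kept reads with several matches is not given in the sources used here.

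ctl-2, the peroxisomal catalase, carried most of the catalase reads and rose. It took 4118, 4178 and 3450 reads under the label Y6B3B.9 and 1410, 1379 and 1641 under the label L4440. That gave 123, 130 and 136 CPM against 56.5, 55.4 and 56.4 CPM, far apart relative to the spread in each group. The level rose 2.31-fold (log2 change 1.21, SE 0.049, edgeR adjusted p = 3.01e-11). Y54G11A.7, which shares 65 exon bases with ctl-2 on the other strand, stood at 16.6 against 13.4 CPM, well below the level of ctl-2 (log2 change 0.31, SE 0.089, edgeR adjusted p = 0.00532).

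ctl-1, the cytosolic catalase, rose by a like amount but from few reads. It took 51, 60 and 37 reads under the label Y6B3B.9 and 11, 23 and 20 under the label L4440, or 1.53, 1.86 and 1.46 CPM against 0.440, 0.924 and 0.687 CPM. All 3 libraries of the first group lay above the second. The log2 change was 1.24 (SE 0.25, edgeR adjusted p = 0.000328), with a 95% interval from 1.63-fold to 3.43-fold. The ratio of ctl-1 to ctl-2 reads overlapped between the groups (difference 0.061 on the log2 scale, SDs 0.21 and 0.53). Reads of ctl-2 outnumbered those of ctl-1 by 58.7 to 123 times in the 6 libraries, and the part of ctl-2 reads assigned to ctl-1 was not tested.

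ctl-3 went the other way. Its reads were 228, 252 and 163 under the label Y6B3B.9 and 365, 343 and 365 under the label L4440. In CPM these were 6.84, 7.83 and 6.41 against 14.6, 13.8 and 12.5, without overlap. Its level was 1.93-fold lower (log2 change -0.95, SE 0.10, edgeR adjusted p = 6.85e-07). ctl-2 outnumbered ctl-3 by 18.02, 16.5 and 21.1 times under the label Y6B3B.9 and by 3.86, 4.02 and 4.49 times under the label L4440, so the ctl-3/ctl-2 ratio was 4.49-fold lower under the label Y6B3B.9 (exact two-sided permutation p = 0.1). In TPM, ctl-3 held 5.27% ± 0.599 of the catalase level under the label Y6B3B.9 and 19.97% ± 1.27 under the label L4440 (SD, n = 3 each), and ctl-2 held 93.5% and 79.0%. With the 3 rows summed, which leaves out the question of how reads were divided among them, the log2 change was 0.97 (SE 0.048, edgeR adjusted p = 1.60e-10).

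**Figure D4:**
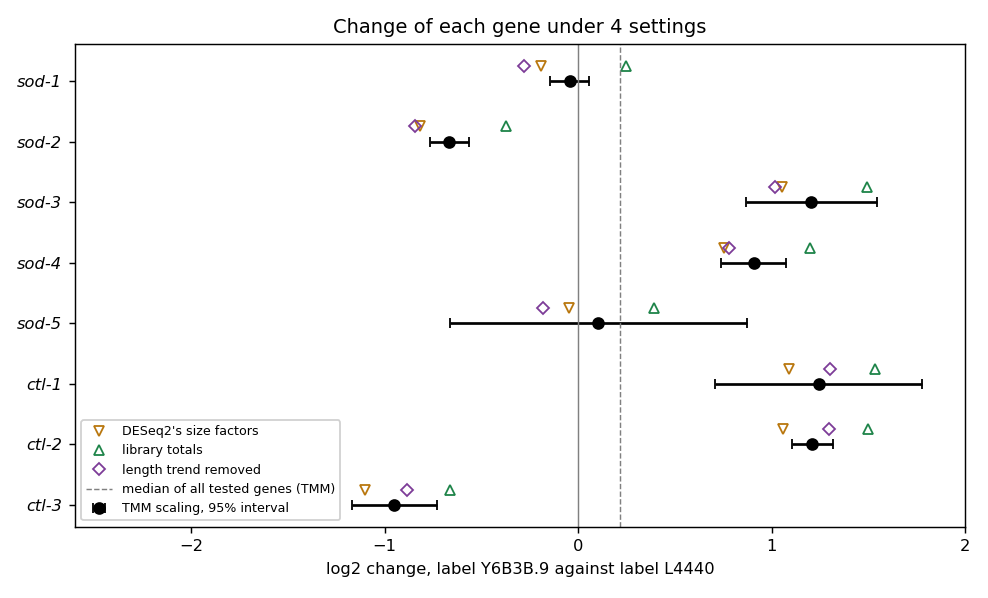
Log2 change of each gene (x axis, label Y6B3B.9 against label L4440), with the 95% interval of the fit with TMM scaling in black and open markers for 3 other settings. sod-2 and ctl-3 stay below 0 and sod-3, sod-4, ctl-1 and ctl-2 above 0 in all 4 settings, while sod-1 and sod-5 fall on both sides.

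Over all 8 genes in TPM, sod-3 and ctl-3 changed places. sod-3 was below ctl-3 under the label L4440 (3.79 against 11.4 TPM) and above it under the label Y6B3B.9 (9.26 against 6.20 TPM), with no overlap of the libraries in either group. Among neighbours in the order of levels, ctl-1 and sod-5 alone overlapped, and only under the label L4440, at 0.584 and 0.849 TPM.

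The genes nearest in pattern were found by the distance between log2 CPM, each centred on its mean, over the 6 libraries. For sod-2 they were eif-3.K, pbs-3 and uev-1, with log2 changes of -0.66, -0.66 and -0.65, and 3232 of 8865 genes lay within a distance of 0.5. For sod-3 they were WBGene00020981, lact-5 and sox-2, and 218 genes lay within that distance. C48B4.7, Y48A6B.3 and ciao-2B were nearest to sod-1, and M60.4, vrp-1 and spp-10 to sod-4. Nearest to ctl-2 were C28H8.14, hex-2 and F54C9.3, and nearest to ctl-3 were ztf-20, C56G2.15 and ddl-2. For ctl-1 the nearest were C17H12.11, F52E1.9 and F56D2.5. For sod-5, with zeel-1, C48D1.1 and efn-4 nearest, 0 genes lay within 0.5. With 2 groups the distance mostly reads the difference between labels, so these are genes with a like change and a like spread.

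Levels of tissue markers moved with the labels, and in whole animals fewer cells of a type and less RNA per cell cannot be told apart. The counts below stand beside 46.4% higher and 37.7% lower among all tested genes. All 15 germline markers fell, their sum lying at 5717 to 6004 CPM under the label Y6B3B.9 and at 13588 to 14083 CPM under the label L4440. So did all 7 tested markers of early embryos (50.9 to 62.3 against 202 to 260 CPM). Of those not tested, med-1 had 0 reads, and end-1 took 28 reads under the label Y6B3B.9 and 10 under the label L4440. Of 13 intestine markers, 10 rose and 3 fell, of which spl-1 changed sign with another scaling (6082 to 6758 against 3432 to 3542 CPM). All 12 markers of hypodermis and cuticle rose (133 to 142 against 50.0 to 58.0 CPM) and so did the 4 tested pharynx markers (88.6 to 100 against 53.8 to 58.8 CPM). Of 12 neuron markers 9 rose and 2 fell, of which unc-104 changed sign with another scaling (413 to 452 against 328 to 347 CPM). Of 10 body wall muscle markers 4 rose and myo-3 fell, which lay above 0 with the length trend removed (1257 to 1399 against 852 to 1082 CPM), of 9 tested sperm markers 4 rose and 2 fell (54.9 to 65.8 against 46.3 to 49.3 CPM), and of 3 coelomocyte markers 2 rose (13.4 to 17.1 against 11.3 to 11.8 CPM). The part of tissue make-up in the changes of the dismutases and catalases was not tested.

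More genes rose than fell in the lists of oxidases, peroxidases and peroxisome biogenesis. Of all tested genes, 46.4% were higher and 37.7% lower. Of 10 genes of NADPH oxidase and extracellular peroxidases, 6 rose and 0 fell, and the list's median log2 change was 0.44. The smallest p-values were those of the peroxidase gene skpo-1 (log2 change 0.56, SE 0.058) and tsp-15 (0.60, SE 0.11), a tetraspanin that works with the dual oxidase. The dual oxidase gene bli-3 itself did not pass the test (log2 change -0.12, SE 0.092, edgeR adjusted p = 0.219). Peroxisomal oxidases release hydrogen peroxide inside the organelle that holds ctl-2. Of 11 oxidase genes listed under that name 7 rose, such as the acyl-CoA oxidase gene acox-3 (0.88, SE 0.057) and the D-aspartate oxidase gene ddo-3 (1.05, SE 0.072). The location of each of these enzymes was not checked here. acox-1.2 (-0.55, SE 0.17) and daao-1 (-0.39, SE 0.16) fell, and the list's median was 0.63. Of 11 peroxisome biogenesis genes 7 rose, among them prx-13 (1.22, SE 0.10) and prx-11 (1.06, SE 0.093). prx-10 (-0.42), prx-14 (-0.34) and prx-19 (-0.35) fell, and the median was 0.64. With TMM scaling the list's summed level was nonetheless lower under the label Y6B3B.9, at 340 to 345 against 362 to 382 CPM. Library totals, which reversed the direction of the dismutase total, were not tried for this sum.

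The other enzymes that remove peroxides also divided, while 46.4% of all tested genes were higher and 37.7% lower. The peroxiredoxins prdx-2, of the cytosol, and prdx-3, of mitochondria, fell by 0.51 (SE 0.052) and 0.50 (SE 0.049) on the log2 scale, from 645 to 452 CPM and from 166 to 117 CPM. Of 11 peroxiredoxin and glutathione peroxidase genes 7 rose (prdx-6 changed sign with another scaling), among them gpx-5 (log2 change 1.395, SE 0.069) and gpx-1 (0.73, SE 0.082), and the median was 0.58. With TMM scaling the summed level of the list was nonetheless lower under the label Y6B3B.9, at 735 to 781 against 917 to 974.8 CPM. How far this drop rests on the scaling was not tested. In the thioredoxin and glutathione systems, 6 of 15 tested genes rose, led by glrx-22 (0.54) and trx-3 (1.33), and 7 fell, led by the glutathione reductase gene gsr-1 (-1.01, SE 0.049) and the glutathione synthetase gene gss-1 (-0.50). The median of -0.14 became 0.16 with library totals, and 5 of the 7 lower genes, trx-2, trxr-1, gcs-1, glrx-3 and glrx-5, changed sign with it. With the length trend removed, 3 of the 6 higher genes lay below 0, namely trx-4 (-0.22), glrx-10 (-0.22) and msra-1 (-0.041), and trxr-1 and gcs-1 lay above 0.

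Among tested genes listed under the supply of metal and heme, more rose than fell, while 46.4% of all tested genes were higher. Whether each of these genes, hrg-7 among them, acts in supply was not checked here. Copper/zinc dismutases need copper, manganese dismutases need manganese and catalases carry heme. Of 10 tested genes 7 rose, such as the metal transporter gene smf-3 (log2 change 1.42, SE 0.16) and hrg-7 (0.50, SE 0.050). The copper ATPase gene cua-1 (-0.98, SE 0.056) and smf-1 (-0.33, SE 0.070) fell, removing the length trend left cuc-1 at -0.0014, and the list's median was 0.51. Summed over the 10 tested genes, the level was 512 to 530 CPM under the label Y6B3B.9. Under the label L4440 it was 514 to 539 CPM, so the groups overlapped with TMM scaling. With library totals the list's median was 0.80, and the sum was not computed.

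Of 17 genes of the insulin pathway and the regulators of DAF-16, 12 fell and 5 rose, with a median log2 change of -0.66. Among all tested genes 37.7% were lower and 46.4% higher. The largest changes by p were those of the lipid phosphatase gene daf-18 (-1.53, SE 0.055) and the phosphoinositide kinase gene age-1 (-1.198, SE 0.049). The receptor gene daf-2 was at -1.38 (SE 0.077) and daf-16 at -0.49 (SE 0.051), the latter at 0.080 with the length trend removed. pqm-1 (1.101, SE 0.065), a factor that alternates with DAF-16, and sgk-1 (0.86, SE 0.064) rose, as did akt-2 (0.59), ftt-2 (0.26) and hlh-30 (0.33). Of 11 tested genes known as raised by DAF-16, 9 rose and 0 fell, with a median of 1.104. Examples were the lysozyme genes lys-7 (1.94, SE 0.099) and lys-8 (1.00, SE 0.054), and mtl-2 (0.14, SE 0.075) and icl-1 (0.034, SE 0.053) were not called. With TMM scaling the sod-3 change of 1.204 lay close to that median, and so did those of ctl-1 (1.24) and ctl-2 (1.21). Of all tested genes, 83.4% had a lower change than sod-3. With the length trend removed, sod-3 was at 1.02, ctl-1 at 1.299, ctl-2 at 1.296 and the median of the list at 0.80. In that setting sod-3, ctl-1 and ctl-2 thus lay further above the median. The part of DAF-16 in these changes was not tested. hsp-16.1 and scl-1 had 0 reads in every library.

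In the p38 MAPK pathway and among the regulators of SKN-1, the other factor known for oxidative stress genes, 6 of 8 genes fell, of which wdr-23 changed sign with another scaling and nsy-1 and wdr-23 with the length trend removed, and tir-1 alone rose (log2 change 2.22, SE 0.076). The median of -0.33 was at 0.025 with the length trend removed. gsk-3 (-0.67, SE 0.045) and mdt-15 (-0.72, SE 0.052) had the smallest p among the lower genes. Of 7 genes known as raised by SKN-1, 6 rose, such as sdz-8 (1.13, SE 0.16) and nit-1 (0.64, SE 0.11), with a median of 0.64. gcs-1 (-0.17) fell, but was above 0 with library totals. These lists are described by counts and medians beside all tested genes, with a median of 0.22 and 84.1% called, 46.4% higher and 37.7% lower. Nothing particular to the lists is read from that.

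**Figure D5:**
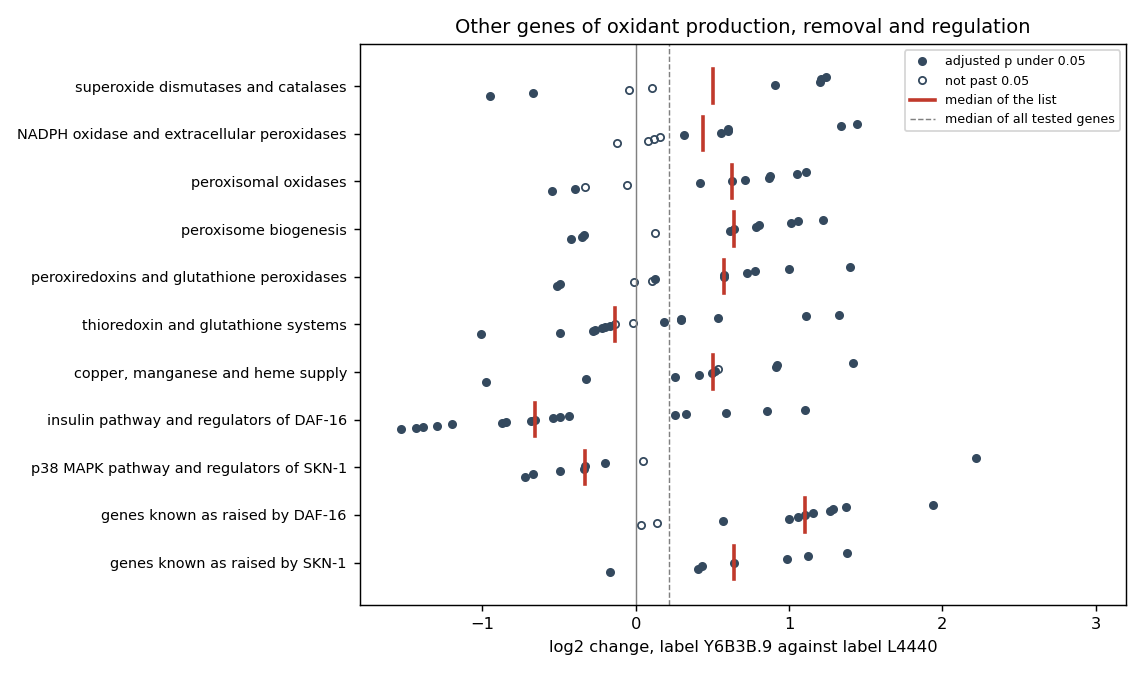
Log2 change (x axis, label Y6B3B.9 against label L4440) of each tested gene of the 8 dismutases and catalases and of 10 related lists (rows), filled where the adjusted p is under 0.05, with the list's median in red and the median of all tested genes, 0.22, dashed. Genes known as raised by DAF-16 have the highest median, 1.104, and the insulin pathway the lowest, -0.66, among the lists shown. With the length trend removed, the median of the former was 0.80, below the 0.87 of the peroxisomal oxidases.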

How the data were processed

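The libraries came from the TruSeq RNA kit v2, per the labels' protocols. The submitters' processing notes name featureCounts 1.4.6-p4, STAR 2.4.1d and bcl2fastq 1.8.4 with build WBcel235, while options, annotation release and strand setting were not given in the sources used here. Values tested are the raw gene counts that the authors deposited. The authors' deposited RPKM values have the 6 library totals recycled along the table (4330 of 4330 genes with at least 1000 reads in every library, within 0.1%), so they served only to recover gene lengths for TPM.

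Tests of these counts used edgeR 4.0.16 under R 4.3.3 (filterByExpr, TMM, glmQLFit and glmQLFTest with robust=TRUE, Benjamini-Hochberg over 14265 genes, threshold 0.05). The fit was run on simulated counts in which few genes changed, which does not test it where most genes differ, as here. Standard errors come from the F statistic. Ratios use a pseudocount of 0.5. Groups follow the perturbation labels, and replicates are numbered in record order. Libraries of one group differed by more than sampling noise (chi-square per degree of freedom 4.08 to 15.2). Counting intervals cover counting error only, as there are no molecular identifiers. Alternatives used DESeq2 1.42.0 and limma 3.58.1 (voom). Positions are from the Ensembl annotation of WBcel235.

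The members and lists were chosen with earlier results of these data known. The rule named the 8 genes, Y6B3B.9, the 2 genes of each list with the smallest p in each direction, the 3 genes nearest in pattern with at least 5 CPM, and neighbours. bli-3, prx-19, trx-2, trxr-1, gcs-1, glrx-3, glrx-5, daf-2, daf-16, akt-2, ftt-2, hlh-30, mtl-2, icl-1, hsp-16.1, scl-1, med-1, end-1, spl-1, prdx-6, trx-4, glrx-10, msra-1, cuc-1, nsy-1 and wdr-23 were named after their values were seen. The intestine marker opt-2 was not analysed here.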

Additional observations from a re-analysis of the deposited data

How the results depend on the processing

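The calls and directions of sod-2, sod-3, sod-4, ctl-1, ctl-2, ctl-3 and the summed catalases held in the 14 alternative fits. sod-1 was called lower with DESeq2's size factors (-0.19), with no filter (-0.14), with the length trend removed (-0.28) and in the DESeq2 Wald test (-0.19), called higher with library totals (0.25), and was at 0.053 with a filter of at least 1 CPM in 3 libraries. sod-5, never called, was at -0.046 with DESeq2's size factors, -0.18 with the length trend removed and -0.033 in the Wald test, between -0.24 and 0.51 when 1 library was left out, and had no value under the 1 CPM filter. Medians changed sign for the thioredoxin and glutathione list (0.16 with library totals) and the p38 list (0.025 with the length trend removed). The count of genes past 0.05 ranged from 10778 to 12771. Among called genes, library totals gave 67.4% higher, TMM 55.2% and DESeq2's size factors 49.7%. Annotated exon lengths, tried after the data were seen, kept the direction of all 10 shares. Depth limits sod-5 and ctl-1. No paired analysis was possible because the labels give no replicate numbers that the groups share. The causes of these shifts were not tested.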
